A study of Oryctolagus cuniculus with 24 samples.

Results

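The genes described here moved in the same direction when cultured corneal keratocytes were exposed to TGF-β1 or to fetal bovine serum (FBS). They were found in 1 fit over 24 RNA-seq libraries, in which the mean of the 2 treatments, each with a weight of 0.5, was set against serum-free medium. A gene was counted as a member when this averaged contrast and each treatment alone passed an adjusted p of 0.05 (edgeR quasi-likelihood test) with the same sign. Of 13308 genes tested, 5869 (44.1%) met the rule, 2751 of them higher and 3118 lower in both treatments.

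The cells were primary keratocytes from rabbit (the cells that live between the collagen layers of the corneal stroma) at first passage on glass with a collagen coat, and each of 3 conditions has 8 libraries. All dishes began in serum-free medium, had medium changes on days 1 and 3 and were cultured for 6 days. The control cells stayed in serum-free medium, which the labels call the keratocyte condition. TGF-β1 cells (the myofibroblast condition) had 5 ng/mL TGF-β1 in serum-free medium from day 1, and FBS cells (the fibroblast condition) had serum-free medium until day 3 and then DMEM with 10% FBS. The treatments therefore differ in days of exposure and in base medium, so a gene that differs between them cannot be assigned to serum or TGF-β1 alone. Both treatments are compared with the same 8 serum-free libraries, so their changes are not independent of each other. The labels do not say whether the libraries came from separate animals or cultures, and the spread behind the p-values below may be technical, as it is only that of the samples at hand.

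Keratocytes of the uninjured cornea are quiet, flat cells that keep the collagen fibrils of the stroma small and evenly spaced through keratan sulfate proteoglycans such as keratocan. After a wound they leave this state: they build actin stress fibres and focal adhesions, make new matrix and proteases, and turn into fibroblasts or contractile myofibroblasts. Serum and TGF-β are the classical agents of these 2 fates in culture, and ANKRD1 and PLAUR (activation) and CD34 and ANPEP (quiescence) are used here as markers of the step that the fates share.

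Depth was similar in the conditions, with totals of 17151397 to 21540864 counts in the serum-free libraries, 15410285 to 20911192 in the TGF-β1 libraries and 15659561 to 22528261 in the FBS libraries. The leading pair of principal components held 58.3% and 24.8% of the variance and separated the 3 conditions, and the next (5.75%) separated library numbers 5 to 8 (replicates 1 to 4, set 1) from 9 to 12 (replicates 5 to 8, set 2) in each condition. Values within the sets are given beside the pooled ones where they differ. FBS replicates 5 and 6 stood apart from FBS replicates 7 and 8 on that component, and the closest pair of libraries (FBS replicates 1 and 2) still differed by 2.80 times the counting variance per gene. Levels are CPM (read counts relative to the scaled library size), and changes are log2 fold changes against serum-free medium, with TGF-β1 first and FBS second where a pair is given. Where a group has 3 values, they are its lowest, median and highest library. A gene said to rise or fall passed the edgeR test in the treatments named. In these bulk samples, fewer cells that express a gene and less of its RNA per cell cannot be told apart.

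All 4 marker genes moved together in both treatments, and in none did a treated library overlap a serum-free one. Of all genes tested, 9.31% had all 16 treated libraries above the serum-free ones and 11.8% had all below. The lowest, median and highest libraries of ANKRD1, a nuclear and sarcomeric ankyrin repeat protein that responds to stretch, were 0, 0.636 and 2.31 CPM in the serum-free group, 245, 374 and 656 in the TGF-β1 group and 112, 252 and 405 in the FBS group. Its change was 9.21 (SE 0.55) with TGF-β1 and 8.51 (SE 0.54) with FBS, and 8.86 on average (edgeR adjusted p = 4.93e-14). The treatments left ANKRD1 at overlapping levels, and the averaged change was 10.11 in set 1 and 7.50 in set 2. PLAUR, the receptor that holds urokinase at the cell surface, had 0, 0.301 and 1.14 CPM in the serum-free group, 22.1, 38.3 and 54.3 in the TGF-β1 group and 91.3, 104 and 132 in the FBS group. It rose by 6.44 (SE 0.33) and 7.93 (SE 0.34), 7.18 on average (edgeR adjusted p = 1.17e-16), and every FBS library lay above every TGF-β1 library. The averaged change in PLAUR was 8.71 in set 1 and 6.62 in set 2.

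On the other side, CD34, a sialomucin of stromal and blood progenitor cells, had 223, 235 and 265 CPM in the serum-free group, 4.68, 6.21 and 6.80 in the TGF-β1 group and 11.1, 13.0 and 15.9 in the FBS group. The libraries of each condition were close together, and the change was -5.29 (SE 0.09) with TGF-β1 and -4.20 (SE 0.09) with FBS (average -4.75, edgeR adjusted p = 6.36e-27). ANPEP, the surface aminopeptidase N, had 283, 352 and 408 CPM in the serum-free group, 9.85, 13.2 and 18.3 in the TGF-β1 group and 2.22, 3.84 and 10.3 in the FBS group. It changed by -4.66 (SE 0.25) and -6.09 (SE 0.27), -5.38 on average (edgeR adjusted p = 8.05e-19), with -5.84 in set 1 and -5.04 in set 2. By the deposited coordinates (genome build not given in the sources used here) ANKRD1 lies on chromosome 18 at 38909353 to 38917411 and CD34 on chromosome 16 at 64742325 to 64765462. PLAUR and ANPEP lie on unplaced scaffolds.

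**Figure D1:**
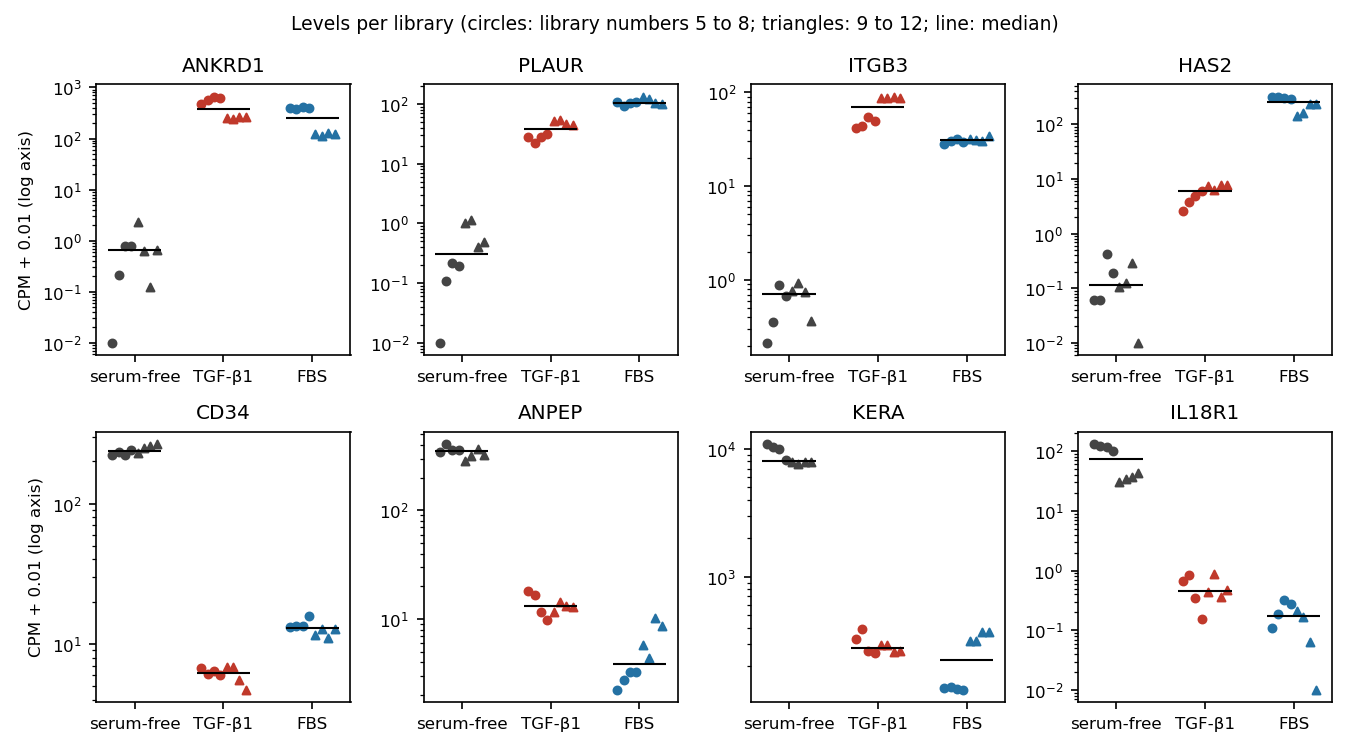
CPM plus 0.01 on a log axis for 8 genes, 1 point per library, with circles for set 1, triangles for set 2 and a line at the median of each condition. In the upper panels (ANKRD1, PLAUR, ITGB3, HAS2) all 16 treated libraries lie above the 8 serum-free libraries, and in the lower panels (CD34, ANPEP, KERA, IL18R1) all lie below.

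Across the transcriptome the averaged contrast called 5069 genes higher and 5098 lower, 38.1% and 38.3% of those tested. An average can be moved by 1 treatment alone, and of these 10167 genes (76.4% of those tested) 5869 (57.7%) changed the same way in both. A further 2706 were called with FBS only, 910 with TGF-β1 only, 646 in opposite directions and 36 with neither alone. Taken singly, TGF-β1 called 31.2% of genes higher and 33.1% lower, and FBS 39.5% and 40.5%. Calls with FBS only made up 25.6% of genes tested and those with TGF-β1 only 9.95%. The members make up 20.7% (higher in both) and 23.4% (lower in both) of all genes tested, and these shares are the background for each list of genes below. Of the members, 179 higher and 446 lower genes have only a locus number and are counted but not named. With a change of 2-fold or more in each treatment the counts were 753 higher (5.66%) and 1426 lower (10.7%).

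The members carried a large part of the RNA. Genes higher in both held 13.3% ± 0.618 of the counts of a serum-free library, 24.6% ± 0.731 of a TGF-β1 library and 39.8% ± 0.868 of an FBS library (mean ± SD, n = 8). Genes lower in both went from 31.2% ± 0.762 to 12.1% ± 0.363 and 9.06% ± 0.282. Their median changes were 0.72 with TGF-β1 and 1.23 with FBS for the higher genes, and -1.02 and -1.57 for the lower ones, beside -0.03 and -0.04 over all genes. These counts follow from the rule and are a description.

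Size differed between the treatments even where direction did not. Among the genes higher in both, FBS gave the larger change in 1548 and TGF-β1 in 462 by a test of the treatments against each other, which called 36.9% of all genes higher and 36.4% lower with TGF-β1 than with FBS. In 741 genes that difference did not pass. Among the genes lower in both the counts were 1678, 346 and 1094. In 2670 of the genes higher in both (97.1%) and 2978 of those lower in both (95.5%) the averaged contrast also passed in set 1 and in set 2 alone. The members were chosen by this contrast in the same libraries pooled, so high shares follow from the rule and are no replication. The size of the change differed between the sets (set-by-contrast term) in 467 and 415 of them (17.0% and 13.3%, against 13.8% of all genes tested), more often smaller in set 2 (312 and 287) than larger (155 and 128). The genes closest to the threshold are small changes with TGF-β1: PARP11 (0.22) and PIM2 (-0.47) were just inside it, AP1M1 (0.25) and GTF3C1 (-0.13) just outside.

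**Figure D2:**
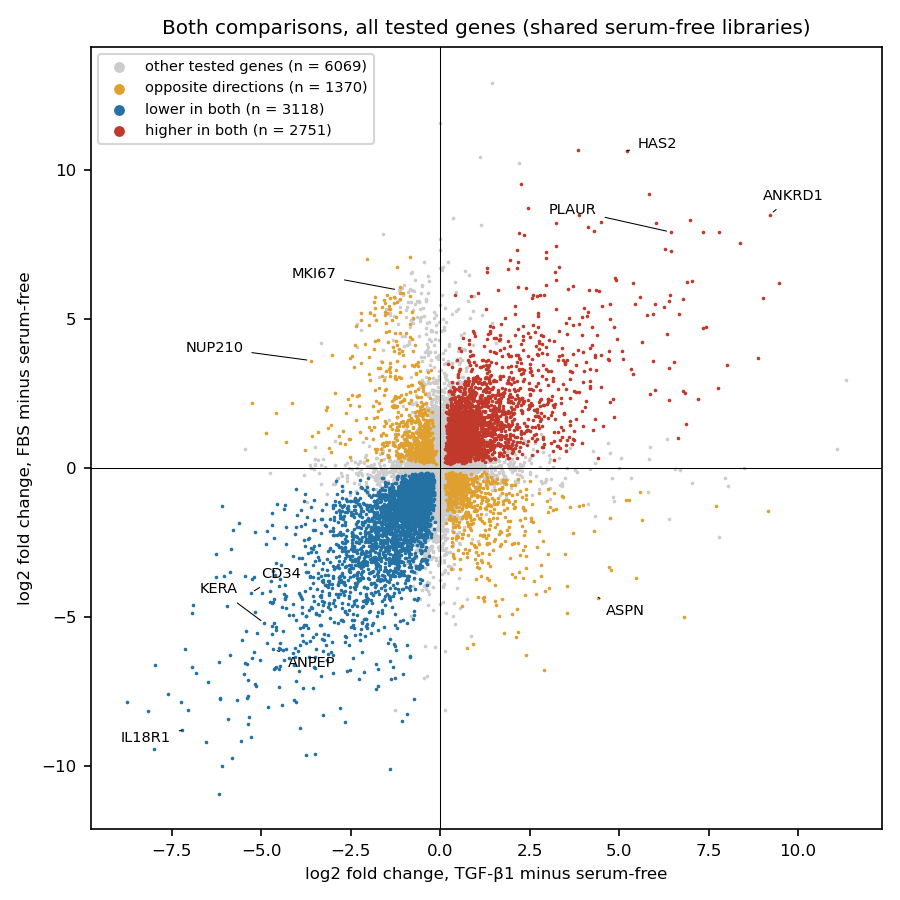
Each point is 1 of the 13308 genes tested, with its log2 fold change with TGF-β1 on the x axis and with FBS on the y axis, both against the same 8 serum-free libraries. Red and blue mark the 2751 genes higher and the 3118 genes lower in both, orange the 1370 called in opposite directions, and ANKRD1 and PLAUR lie far out in the upper right as KERA, CD34, ANPEP and IL18R1 do in the lower left.

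Among the 15 genes with the largest rises in both, taken from those with a mean of 5 CPM or more in the treatments and no overlap with serum-free medium and ranked by the smaller of the 2 changes, were ANKRD1, TM4SF18, PLAUR, ACTA2, FXYD5, TAGLN, ITGB3, PMCH, CCBE1, PARPBP, LAPTM5, IL1RL2, HAS2 and FAM198B. The ranking used these changes, so the values are a description. ACTA2, α-smooth muscle actin, had 0.353, 2.71 and 6.93 CPM in the serum-free group, 115, 202 and 403 in the TGF-β1 group and 247, 482 and 722 in the FBS group, with changes of 6.29 and 7.35. TAGLN (transgelin), which binds actin in smooth muscle, changed by 6.91 and 6.24. Both contractile genes were thus far above their serum-free levels in the fibroblast condition too. The difference of TGF-β1 minus FBS was -1.05 (95% interval -1.81 to -0.30, edgeR adjusted p = 0.0127) for ACTA2 and 0.67 (0.04 to 1.30, edgeR adjusted p = 0.0531) for TAGLN. By set, the averaged changes were 6.17 and 4.97 for FAM198B (set 1 first).

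The β3 integrin subunit gene ITGB3, whose product binds vitronectin and fibronectin, had 0.204, 0.701 and 0.909 CPM in the serum-free group, 41.3, 70.5 and 89.8 in the TGF-β1 group and 28.3, 30.9 and 34.5 in the FBS group. Every TGF-β1 library was above every FBS library, with changes of 6.78 and 5.66. HAS2, a hyaluronan synthase, was the least even of the 15: it had 0, 0.104 and 0.417 CPM in the serum-free group, 2.60, 6.07 and 7.73 in the TGF-β1 group and 144, 261 and 319.6 in the FBS group. Its rise was 5.22 (SE 0.36) with TGF-β1 and 10.66 (SE 0.34) with FBS, a difference of TGF-β1 minus FBS of -5.44 (95% interval -5.87 to -5.00). LAPTM5, a lysosomal membrane protein typical of leukocytes, had 2.60, 3.77 and 6.27 CPM in the serum-free group, 243, 313 and 359.7 in the TGF-β1 group and 137, 171 and 201 in the FBS group, and IL1RL2, the receptor for interleukin-36 cytokines, rose by 5.39 and 6.22. FXYD5, a modulator of the sodium pump also called dysadherin, rose by 7.03 and 6.28 and the membrane protein TM4SF18 by 8.37 and 7.54. PMCH (the precursor of melanin-concentrating hormone), PARPBP (a PARP-binding protein of DNA repair) and the secreted protein CCBE1 changed by 5.58 and 5.75 (PMCH), 5.46 and 5.52 (PARPBP) and 6.01 and 5.50 (CCBE1), and FAM198B rose by 5.95 and 5.17.

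The 15 largest falls by the same ranking (from 5 CPM or more in serum-free medium) were IL18R1, KIAA0319, SELENBP1, FAM20A, CYP3A6, TRIL, SLC25A18, FBP1, SYNDIG1, FAM65C, STOX1, LIX1, BRINP2, CHRNA3 and EFCC1. IL18R1, the interleukin-18 receptor subunit that binds the cytokine, had 30.6, 72.5 and 131 CPM in the serum-free group, 0.146, 0.440 and 0.859 in the TGF-β1 group and 0, 0.167 and 0.314 in the FBS group. No treated library reached 1 CPM (changes -7.22 and -8.82). SELENBP1, an enzyme that oxidises methanethiol, had 123, 162 and 189 CPM in the serum-free group, 0.975, 1.14 and 2.54 in the TGF-β1 group and 0.591, 1.09 and 2.35 in the FBS group. The treatments left it at overlapping levels, with a difference of 0.06 (95% interval -0.48 to 0.61) and changes of -6.81 and -6.88. FBP1, the fructose bisphosphatase of gluconeogenesis, had 21.0, 24.5 and 27.9 CPM in the serum-free group, 0.130, 0.360 and 0.520 in the TGF-β1 group and 0, 0 and 0.0546 in the FBS group. Only 1 count of FBP1 was found in the 8 FBS libraries against 3625 in serum-free medium, a ratio of 4275 (95% binomial interval 767 to 168902, for counting error only). Averaged changes in set 1 and set 2 were -6.90 and -5.87 for SYNDIG1.

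FAM65C changed by -6.16 and -7.77 and BRINP2, a neural secreted protein, by -5.88 and -6.29, from medians of 252 and 104 CPM in serum-free medium. TRIL, an accessory protein of Toll-like receptors, had 37.1, 45.9 and 53.3 CPM in the serum-free group, 0.219, 0.425 and 0.845 in the TGF-β1 group and 0, 0.0624 and 0.218 in the FBS group (changes -6.55 and -9.22). CHRNA3, a nicotinic acetylcholine receptor subunit, had 0 counts in all FBS libraries and 859 in serum-free medium, at least 338-fold lower with 3 counts over the group as the floor. With TGF-β1 it changed by -5.82. CYP3A6, a rabbit cytochrome P450 enzyme, had 2 counts with TGF-β1 against 843 (ratio 354, interval 97.8 to 2932). The other falls of this group were large in both treatments: -7.05 and -8.12 for KIAA0319, -6.94 and -6.69 for FAM20A, a partner of a secreted-protein kinase,, -6.49 and -7.21 for the mitochondrial glutamate carrier SLC25A18, -6.17 and -6.51 for SYNDIG1, -6.14 and -7.73 for STOX1, -5.93 and -8.45 for LIX1 and -5.67 and -7.80 for EFCC1. LIX1 had 2 counts with FBS, and its FBS value depends on the small count added in the fit.

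Most genes of the actin cytoskeleton rose in both treatments. Of 19 tested, 16 were higher and 1 lower in both (medians 1.64 with TGF-β1 and 2.23 with FBS, against the background of 20.7% higher). ACTA2, TAGLN and the enteric actin gene ACTG2 led them, ACTG2 with 0, 0 and 0.244 CPM in the serum-free group, 3.57, 3.89 and 6.66 in the TGF-β1 group and 1.36, 2.71 and 3.41 in the FBS group. TAGLN2, a close relative of TAGLN, was called with FBS only (-0.15 and 2.32), and the leiomodin gene LMOD1 moved in opposite directions (-0.70 and 1.55). Of 24 focal adhesion adaptors, proteins that link integrins to actin, 16 were higher and 1 lower in both (medians 0.91 with TGF-β1 and 0.95 with FBS). PDLIM7, a PDZ and LIM domain protein of stress fibres, had 33.0, 36.7 and 42.7 CPM in the serum-free group, 190.2, 211 and 278 in the TGF-β1 group and 204, 214 and 296 in the FBS group, and its changes were 2.58 and 2.62 with a difference of -0.03 (95% interval -0.23 to 0.17). The LIM domain coactivator FHL2 changed by 2.17 and 4.68 and filamin C (FLNC) by 1.69 and 2.49, FLNC with 2.99 in set 1 and 1.23 in set 2. PARVA, an adaptor of the integrin-linked kinase complex, was called with FBS only (0.10 and -0.64). The sets differed, with averaged changes of 3.17 and 3.68 for FHL2 (set 1 first).

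Integrin genes did not move as 1 group: 5 of 16 were higher and 3 lower in both (medians 0.61 with TGF-β1 and 0.68 with FBS). ITGB3 and ITGA5, subunits of fibronectin and vitronectin receptors, rose (ITGA5 by 1.53 and 2.33), while ITGA2, the collagen receptor subunit, had 49.99, 83.2 and 132 CPM in the serum-free group, 3.31, 4.31 and 5.23 in the TGF-β1 group and 1.93, 3.62 and 4.74 in the FBS group. All 16 treated libraries of ITGA2 lay below the 8 serum-free ones, and its changes of -4.42 and -4.69 differed by 0.27 (95% interval -0.16 to 0.69). ITGA11, another collagen receptor subunit, rose with TGF-β1 and fell with FBS (2.60 and -1.82). Of 22 target genes of the YAP and TEAD mechanosensitive factors, 9 were higher and 4 lower in both (medians 0.32 with TGF-β1 and 0.31 with FBS). Besides ANKRD1, the matricellular growth factor gene CTGF had 76.1, 113 and 242 CPM in the serum-free group, 3606, 4482 and 5898 in the TGF-β1 group and 1114, 1651 and 2488 in the FBS group (changes 5.10 and 3.67), and the matrix protein gene CCDC80 rose by 3.45 and 2.81. AMOTL2, which restrains YAP, rose with TGF-β1 and fell with FBS (0.21 and -1.17). With counts summed per condition and set (2 values a condition), 1 YAP target was called lower in both. Between the sets the averaged changes were -4.83 and -4.12 for ITGA2 and 3.33 and 2.98 for CCDC80 (set 1 first).

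Early response transcription factors were higher in both in 8 of 16 cases and lower in none (medians 1.23 with TGF-β1 and 0.72 with FBS). The orphan nuclear receptor genes NR4A1 and NR4A3 rose by 3.75 and 2.59 and by 2.55 and 3.66, NR4A1 from 1.40, 2.56 and 4.85 CPM (lowest, median and highest) to 25.2, 36.6 and 39.1 with TGF-β1 and 12.8, 14.96 and 19.3 with FBS. FOSL1, an AP-1 subunit, rose by 1.79 and 4.02, but a locus on the other strand overlaps it, and whether the counting used strand was not given. ATF3, a stress factor, moved in opposite directions (1.64 and -2.21), and so did the immediate early gene IER3 (-0.66 and 0.91). These genes are usually induced within minutes to hours, and the libraries were made days after the treatments began. By set, the averaged changes were 3.52 and 2.44 for FOSL1 (set 1 first).

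Feedback inhibitors of the ERK kinases were lower in both more often than higher. Of 14 tested, 3 were higher (21.4%, near the background of 20.7%) and 6 lower in both (42.9%, against 23.4%). Their medians were -0.45 with TGF-β1 and -0.01 with FBS. The averaged median was -0.23, which is 0.09 in set 1 and -0.15 in set 2. DUSP4, a nuclear phosphatase of ERK, had 0.671, 2.61 and 3.35 CPM in the serum-free group, 47.6, 61.3 and 91.0 in the TGF-β1 group and 94.5, 109 and 128 in the FBS group and rose, by 4.76 and 5.51. The Sprouty inhibitors of receptor signalling went the other way: SPRY4 had 121, 151 and 182 CPM in the serum-free group, 39.5, 42.9 and 44.7 in the TGF-β1 group and 35.9, 40.8 and 47.1 in the FBS group, with changes of -1.85 and -1.89, and SPRY1 changed by -1.53 and -3.18. With summed counts 3 were called lower. Among 12 Krüppel-like factors 3 were higher and 2 lower in both (25% and 16.7%, near the background of 20.7% and 23.4%). The TGF-β early response factor KLF10 rose by 1.89 and 3.84, 3.76 on average in set 1 and 2.37 in set 2, whereas KLF9 (-1.05 and -1.41) and KLF15 (-0.50 and -2.55), factors induced by glucocorticoid, fell.

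Most genes tested for cell growth were higher in both, with larger median changes in FBS. MYC, the transcription factor of ribosome production, had 11.3, 18.0 and 24.7 CPM in the serum-free group, 35.8, 45.2 and 49.3 in the TGF-β1 group and 138, 157 and 190.1 in the FBS group. The 3 ranges did not overlap, with changes of 1.30 and 3.19 (2.61 on average in set 1 and 1.93 in set 2). Of 21 genes of ribosome biogenesis and MYC targets, 14 were higher and 0 lower in both, with medians of 0.39 with TGF-β1 and 2.07 with FBS. NOP16, a nucleolar protein, rose by 0.70 and 2.69 and POLR1A, the largest subunit of RNA polymerase I, by 0.68 and 1.59, whereas nucleolin (NCL) was called with FBS only (-0.07 and 2.06) and dyskerin (DKC1) moved in opposite directions (-0.44 and 1.99). The TGF-β1 changes of this list are small: with total library size in place of the scaled size 9 were higher in both, and with summed counts 1. Averaged changes in set 1 and set 2 were 2.01 and 1.46 for NOP16 and 1.41 and 0.86 for POLR1A.

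Of 20 genes of amino acid uptake and aminoacylation, 14 were higher and 0 lower in both (medians 0.55 with TGF-β1 and 1.03 with FBS), 7 with summed counts. SLC7A5, the light chain of the large neutral amino acid transporter, had 13.4, 22.9 and 40.4 CPM in the serum-free group, 78.7, 169 and 260.4 in the TGF-β1 group and 318, 393 and 514 in the FBS group, and no range overlapped another (changes 2.75 and 4.01). The arginine transporter SLC7A1 rose by 1.53 and 1.13 and the glycyl-tRNA synthetase gene GARS by 1.12 and 1.88. Of 12 genes of the cytosolic chaperonin and tubulin, 8 were higher in both, 2 with summed counts. A further 2 moved in opposite directions and 2 were called with FBS only. Tubulin genes had no part in the shared rise: of 18 tested genes of the tubulin family, 0 were higher and 2 lower in both. In that family 5 moved in opposite directions. The chaperonin subunits CCT3 and CCT4, which fold actin and tubulin, rose by 0.67 and 2.82 and 0.74 and 2.11, and the tubulin gene TUBA1B moved in opposite directions (-1.05 and 1.59).

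Glycolysis genes were higher in both in 10 of 20 cases and lower in 2 (medians 0.72 with TGF-β1 and 0.78 with FBS). HK2, an inducible hexokinase, had 6.98, 11.8 and 18.3 CPM in the serum-free group, 49.7, 65.8 and 84.3 in the TGF-β1 group and 25.8, 51.5 and 61.7 in the FBS group and rose by 2.47 and 2.02. PFKFB3, which makes the activator of phosphofructokinase, rose by 3.47 and 1.86 and the lactate exporter SLC16A3 by 4.04 and 2.05, though SLC16A3 overlaps the end of CSNK1D on the other strand. The glucose transporter SLC2A1 rose with TGF-β1 and fell with FBS (0.85 and -2.09). Of 19 endoplasmic reticulum chaperones and secretion genes, 6 were higher and 2 lower in both (medians 0.20 with TGF-β1 and -0.12 with FBS), none higher with summed counts, and the averaged median of 0.07 was -0.03 in set 1. The chaperone HSP90B1 rose by 0.59 and 0.78 and the co-chaperone DNAJB11 by 0.52 and 0.99, while CREB3L1, a membrane-bound factor that drives collagen secretion, changed by -1.16 and -1.04. The sets differed, with averaged changes of 1.82 and 2.78 for HK2, 3.01 and 2.22 for PFKFB3, 0.56 and 0.99 for DNAJB11 and -1.37 and -0.87 for CREB3L1 (set 1 first).

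Genes often used as references moved too: 8 of 13 were higher and 1 lower in both (medians 0.46 with TGF-β1 and 1.25 with FBS), 2 higher with summed counts. ACTB, β-actin, had 976, 1385 and 1651 CPM in the serum-free group, 1871, 2377 and 3034 in the TGF-β1 group and 6694, 6934 and 8345 in the FBS group, with changes of 0.86 and 2.42. The transferrin receptor gene TFRC rose by 0.79 and 2.24 and PGK1, a glycolytic kinase, by 1.37 and 1.38, so that these genes were not at a constant share of the counts here. The ribosomal protein gene RPLP0 was called with FBS only (0.20 and 0.69). Between the sets the averaged changes were 1.51 and 1.79 for ACTB and 1.74 and 1.27 for TFRC (set 1 first).

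Several proteases at the cell surface rose, and the matrix genes were divided. Of 18 proteases, receptors and inhibitors, 9 were higher and 2 lower in both (medians 2.23 with TGF-β1 and 0.77 with FBS). ADAM19, a membrane metalloprotease, had 1.99, 4.60 and 8.21 CPM in the serum-free group, 241, 275 and 326 in the TGF-β1 group and 139, 177 and 204 in the FBS group. ADAMTS1, a secreted metalloprotease that cleaves versican and aggrecan, had 6.57, 10.4 and 17.5 CPM in the serum-free group, 255, 278 and 403 in the TGF-β1 group and 208, 357 and 504 in the FBS group. The changes were 5.77 and 5.12 for ADAM19, whose TGF-β1 libraries all lay above the FBS libraries, and 4.75 and 5.00 for ADAMTS1, whose treated ranges overlapped. Both averaged changes were larger in set 1 (6.23 and 5.60) than in set 2 (4.84 and 4.19). The gelatinase MMP2 rose with TGF-β1 and fell with FBS (2.23 and -0.76).

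Of 20 matrix genes known from wounds, 7 were higher in both and none lower (medians 1.60 with TGF-β1 and 0.30 with FBS), 4 higher with summed counts. THBS1, thrombospondin, an activator of latent TGF-β, had 1314, 1669.8 and 2106 CPM in the serum-free group, 5666, 9706 and 14474 in the TGF-β1 group and 2178, 4988 and 7688 in the FBS group, with changes of 2.59 and 1.60. It was 2.76 on average in set 1 and 1.17 in set 2. Biglycan (BGN) rose by 3.97 and 1.90 and tenascin C (TNC) by 1.72 and 3.77. FN1, fibronectin, and SPARC rose with TGF-β1 and fell with FBS (FN1 2.00 and -2.54, SPARC 0.36 and -2.97), so fibronectin was no member although it stands on the list of activation markers, of which 8 of 10 were higher in both. Collagen crosslinking genes were higher in both in 7 of 14 cases and lower in 1 (medians 1.58 with TGF-β1 and 0.31 with FBS). P4HA3, a prolyl hydroxylase subunit, had 0.306, 1.25 and 2.26 CPM in the serum-free group, 205, 224 and 259.8 in the TGF-β1 group and 27.0, 32.6 and 51.0 in the FBS group. The lysyl hydroxylase PLOD2 rose by 6.85 and 2.51 and the transglutaminase TGM2 by 6.80 and 2.60, and in all 3 genes the TGF-β1 change was the larger. By set, the averaged changes were 3.88 and 2.52 for BGN, 6.76 and 5.63 for P4HA3 and 5.20 and 4.19 for TGM2 (set 1 first).

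Collagens and microfibril genes of the resting stroma were lower in both in 5 of 12 cases and higher in 1 (medians -0.10 with TGF-β1 and -3.25 with FBS), 3 lower with summed counts. COL6A2, a chain of the beaded-filament collagen, had 7346, 7855 and 8639 CPM in the serum-free group, 1759.5, 2026 and 2229.6 in the TGF-β1 group and 396, 584 and 828 in the FBS group, and the ranges did not overlap (averaged change -2.86, -3.73 with FBS). COL6A3 changed by -1.73 and -3.48. COL1A1, the main chain of type I collagen, was called with FBS only (0.14 and -3.44, edgeR adjusted p = 0.412 with TGF-β1), and COL11A1, of fine fibrils, moved in opposite directions (2.31 and -3.69). COL15A1, a basement membrane collagen, was the member that rose (3.96 and 4.48). Averaged changes in set 1 and set 2 were -3.07 and -2.71 for COL6A2.

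Keratocyte identity genes were lower in both in 11 of 13 cases and higher in none (medians -2.37 with TGF-β1 and -3.95 with FBS, against 23.4% of all genes). KERA, the keratan sulfate proteoglycan keratocan, had 7534, 8052 and 10873 CPM in the serum-free group, 253, 278 and 390.0 in the TGF-β1 group and 129.8, 224 and 372 in the FBS group. Its changes of -4.91 (SE 0.25) and -5.21 (SE 0.25) differed by 0.30 (95% interval -0.13 to 0.73), although the averaged change was -5.59 in set 1 and -4.66 in set 2 (set-by-contrast adjusted p = 8.91e-06). A locus on the other strand overlaps KERA and held 2355 counts against 1395508 in all. AQP1, the aquaporin of keratocytes, rose with TGF-β1 and fell with FBS (1.43 and -1.27), and 1 other gene of the list was called with TGF-β1 only. Of 13 stromal surface antigens 6 were lower and 3 higher in both, 2 lower with summed counts. ICAM1, an adhesion molecule for leukocytes, had 3.82, 10.2 and 20.7 CPM in the serum-free group, 81.3, 158 and 213 in the TGF-β1 group and 112, 171 and 220.4 in the FBS group and was among the higher, with changes of 3.71 and 3.82, and podoplanin (PDPN) moved in opposite directions (0.97 and -0.41). The sets differed, with averaged changes of 4.18 and 3.59 for ICAM1 (set 1 first).

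Receptors for growth factors were lower in both in 11 of 16 cases and higher in 1 (medians -1.13 with TGF-β1 and -1.76 with FBS). KDR, a receptor for VEGF best known from vascular endothelium, had 231, 311 and 354 CPM in the serum-free group, 43.5, 70.9 and 109 in the TGF-β1 group and 11.5, 13.6 and 15.5 in the FBS group, and the 3 ranges did not overlap (changes -2.06 and -4.49). The neurotrophin receptors NTRK3 and NTRK2 changed by -3.95 and -6.82 and by -2.08 and -5.06 from medians of 2.66 and 6.27 CPM, and NTRK3 kept 3 counts with FBS against 396 (ratio 156, 95% binomial interval 52.9 to 758). PDGFRB, the β receptor for PDGF, moved in opposite directions (0.64 and -0.60). Between the sets the averaged changes were -3.65 and -2.98 for KDR and -5.13 and -2.18 for NTRK2 (set 1 first).

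Clock output genes were lower in both in 8 of 14 cases and higher in 1 (medians -0.56 with TGF-β1 and -1.22 with FBS), 5 lower with summed counts. NR1D1, a haem-binding repressor of clock genes, had 129, 137 and 172 CPM in the serum-free group, 18.2, 23.2 and 26.8 in the TGF-β1 group and 6.83, 8.25 and 9.06 in the FBS group. The 3 ranges did not overlap, and NR1D1 changed by -2.65 and -4.15. The PAR bZIP factor HLF changed by -3.09 and -3.79 and the cryptochrome CRY2 by -1.46 and -2.62, while NR1D2, the relative of NR1D1, was called with FBS only (-0.07 and -2.01). The labels give no time of day for the harvests. Complement genes were lower in both in 8 of 13 cases and higher in none (medians -1.84 with TGF-β1 and -2.28 with FBS). C3, the central component, had 45.7, 49.7 and 73.8 CPM in the serum-free group, 4.60, 10.3 and 12.4 in the TGF-β1 group and 0.936, 4.38 and 13.6 in the FBS group and changed by -2.55 and -3.27, more in set 1 (-4.18 on average) than in set 2 (-2.19). Factor B (CFB) changed by -3.37 and -2.60, though it overlaps NELFE on the other strand, and C5 by -2.71 and -5.13. By set, the averaged changes were -4.03 and -2.50 for CFB (set 1 first).

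Antioxidant and detoxification genes were lower in both in 7 of 15 cases and higher in 2 (medians -0.33 with TGF-β1 and -1.31 with FBS). The flavin monooxygenase FMO2 changed by -5.95 and -4.63 and the retinal dehydrogenase ALDH1A3 by -3.22 and -3.94, whereas CYP26B1, which degrades retinoic acid, had 0.284, 0.536 and 1.72 CPM in the serum-free group, 2.62, 5.02 and 7.61 in the TGF-β1 group and 12.1, 19.0 and 29.6 in the FBS group and rose by 2.73 and 4.73. In the IGF system 4 of 13 were lower and 1 higher in both: stanniocalcin STC2 changed by -2.66 and -2.67, and the binding proteins IGFBP4 and IGFBP6 by -4.30 and -1.98 and -2.31 and -3.25. Cytokines and their receptors split, with 4 of 13 higher and 5 lower in both, 3 lower with summed counts. LIF, a cytokine of the IL-6 family, had 0.560, 1.22 and 4.09 CPM in the serum-free group, 41.6, 59.6 and 63.5 in the TGF-β1 group and 17.5, 23.9 and 35.7 in the FBS group and rose by 5.08 and 3.92, and IL6 rose by 3.96 and 5.08, while IL18R1 fell and the chemokine CCL2 moved in opposite directions (-3.18 and 1.94). The averaged median of that list was 0.73 in all libraries and -0.36 in set 2. Among lipid genes 3 of 14 were higher and 4 lower in both (21.4% and 28.6%, near the background of 20.7% and 23.4%). The apolipoprotein APOD (-2.79 and -3.63) and the mitochondrial coactivator PPARGC1A (-2.85 and -3.93) were among the lower. FABP4 of the same list went the other way, with group totals of 0 (serum-free), 18 (TGF-β1) and 361 (FBS) counts. Of 12 Wnt antagonists and Notch genes 3 were higher and 3 lower in both (25% each, near the background of 20.7% and 23.4%). Among the higher, the Notch target HES1 had 1.41, 2.24 and 3.63 CPM in the serum-free group, 15.2, 17.6 and 21.0 in the TGF-β1 group and 15.8, 17.3 and 22.3 in the FBS group and rose by 2.95 and 2.98. The genes HEY1 and HEYL of the same list were not tested. Averaged changes in set 1 and set 2 were 3.05 and 4.59 for CYP26B1, -3.33 and -1.97 for STC2, -3.56 and -2.85 for IGFBP4, -3.74 and -2.28 for IGFBP6 and -4.65 and -2.42 for APOD.

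**Figure D3:**
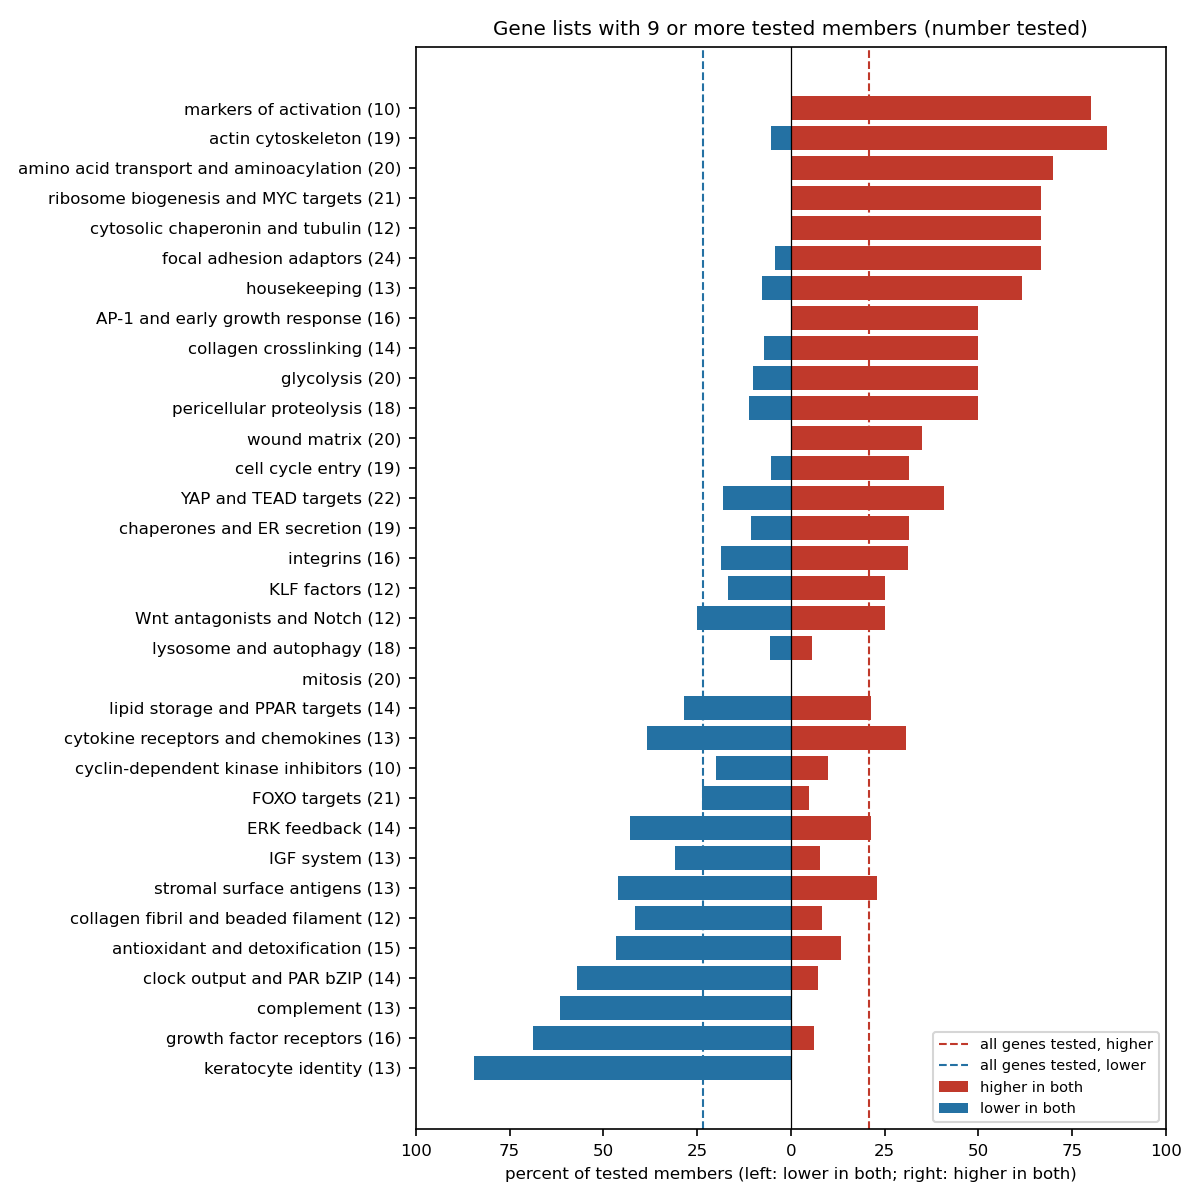
Bars give the percent of the tested members of each gene list with 9 or more tested members that were lower (left, blue) or higher (right, red) in both treatments, and dashed lines the same shares over all 13308 genes (23.4% and 20.7%). Actin cytoskeleton (16 of 19 higher) and keratocyte identity (11 of 13 lower) lie farthest from the lines among these lists, and mitosis has no bar.

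In some groups the average was no shared change. All 20 mitotic genes were higher in the averaged contrast, yet none was higher in both (1 with the replicate block, which pairs libraries by number, with DESeq2, with FPKM or without serum-free replicate 2 or 3 or TGF-β1 replicate 7, 2 with set as a covariate and 4 in set 2 alone): 13 were called with FBS only and 7 fell with TGF-β1 and rose with FBS (medians -0.80 with TGF-β1 and 5.56 with FBS). MKI67, a nuclear protein of dividing cells, had 0.281, 4.86 and 18.1 CPM in the serum-free group, 1.73, 2.34 and 6.05 in the TGF-β1 group and 195, 448 and 599 in the FBS group. Every FBS library was above all others, the serum-free and TGF-β1 libraries overlapped, and the averaged change of 2.41 rests on 5.98 with FBS beside -1.15 with TGF-β1 (edgeR adjusted p = 0.0658). With TGF-β1 the change in MKI67 was -1.59 in set 1 and 0.99 in set 2, and without TGF-β1 replicate 2 or serum-free replicate 5, 6, 7 or 8 it passed the test (-1.39 to -1.31). CENPF, a kinetochore protein, fell with TGF-β1 and rose with FBS (-1.98 and 4.81). Cell cycle entry lay between: 18 of 19 genes were higher in the average, 6 higher and 1 lower in both, 8 called with FBS only and 4 in opposite directions. CDK6, the kinase that opens the cell cycle, had 22.97, 29.8 and 40.0 CPM in the serum-free group, 83.2, 106 and 122 in the TGF-β1 group and 56.8, 194 and 265 in the FBS group and rose by 1.75 and 2.51, and cyclin D3 (CCND3) by 1.13 and 1.82, whereas cyclin D2 (CCND2) changed by -1.19 and -1.61. The replication helicase gene MCM5 (-1.96 and 5.19) and the ribonucleotide reductase gene RRM2 (-1.49 and 5.21) moved in opposite directions. The sets differed, with averaged changes of -1.57 and -1.18 for CCND2 (set 1 first).

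The inhibitor genes CDKN1A and CDKN1B, brakes on cyclin-dependent kinases, moved in different directions. CDKN1A had 49.4, 117 and 204 CPM in the serum-free group, 959, 1277 and 1445 in the TGF-β1 group and 171, 199 and 214 in the FBS group. It rose by 3.34 and 0.66, with FBS libraries that overlapped the serum-free range, and CDKN1B changed by -1.28 and -0.81. Of 21 FOXO target genes 5 were lower (2 with summed counts) and 1 higher in both. The lower share of 23.8% is near the background of 23.4%. Another 9 moved in opposite directions, as did 10.3% of all genes tested, and 8 of the 9 were higher with TGF-β1. The ubiquitin ligase gene FBXO32 was such a gene (3.89 and -1.27), and CITED2 was the member that rose (1.51 and 1.17). Of 18 genes of lysosome and autophagy 8 were higher with TGF-β1 and lower with FBS (5.34% of all genes tested), and 1 was higher and 1 lower in both. Cathepsin K (CTSK) was the higher gene, with 329, 404 and 566 CPM in the serum-free group, 1877, 1953 and 2189.5 in the TGF-β1 group and 602, 807 and 1128 in the FBS group (changes 2.26 and 1.02), and cathepsin B (CTSB) and the cholesterol transporter NPC1 moved in opposite directions (CTSB 1.24 and -0.98, NPC1 1.13 and -1.17). Between the sets the averaged changes were 2.86 and 1.46 for CDKN1A (set 1 first).

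**Figure D4:**
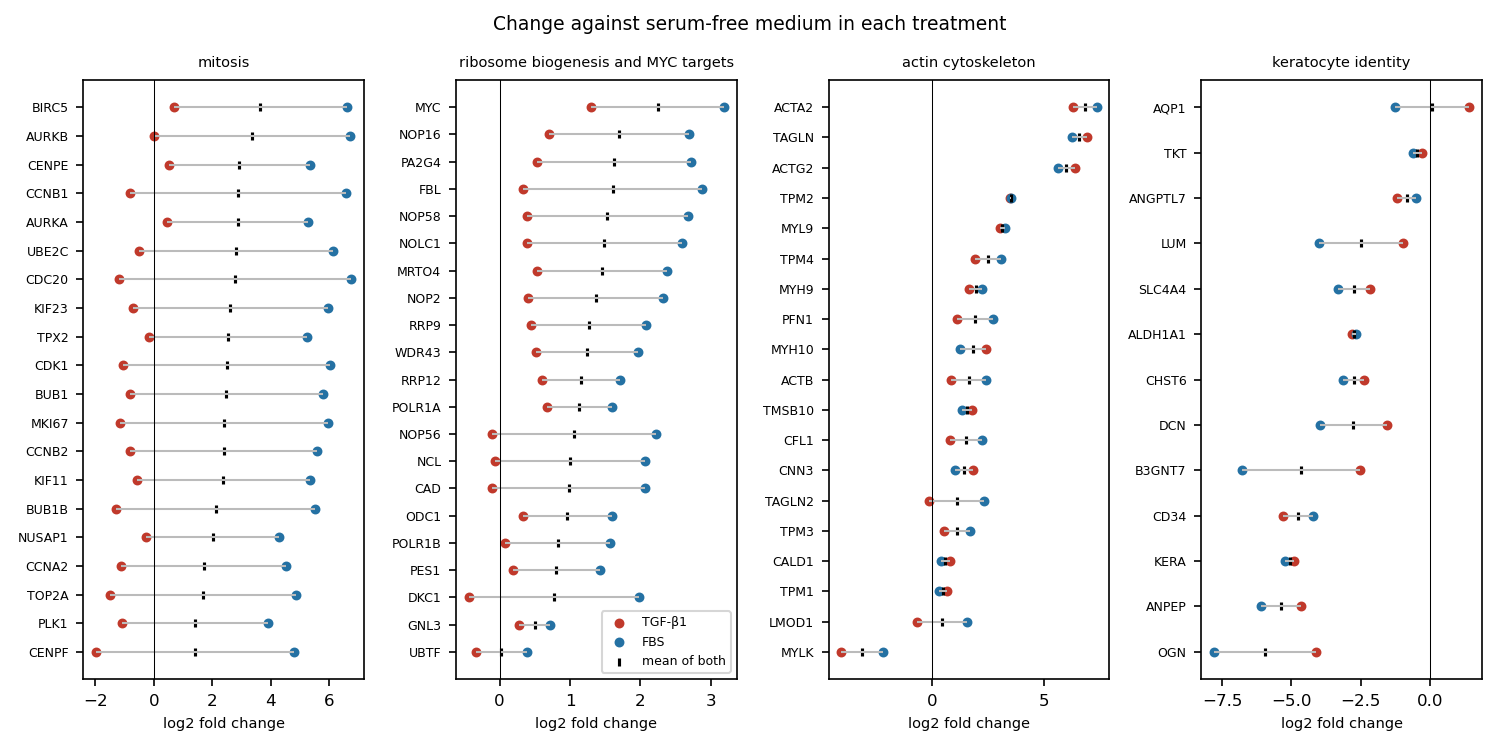
Changes against serum-free medium (log2 fold change, x axis) for every tested member of 4 lists, with TGF-β1 in red, FBS in blue and their mean as a black bar. For mitosis the points lie on both sides of 0 or near it with TGF-β1 and far right with FBS, for actin cytoskeleton and keratocyte identity nearly all pairs lie on 1 side, and for ribosome biogenesis the TGF-β1 points lie close to 0 (median 0.39).

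In all, 711 genes (5.34%) rose with TGF-β1 and fell with FBS and 659 (4.95%) did the reverse, so that their average can be near 0. ASPN, the small proteoglycan asporin, had 131, 214 and 257 CPM in the serum-free group, 2698, 4265 and 7314 in the TGF-β1 group and 6.70, 8.40 and 15.3 in the FBS group: changes of 4.42 and -4.36 average to 0.03. GDF10, a TGF-β superfamily ligand, rose by 6.82 with TGF-β1 and had 0 counts with FBS against 31 in serum-free medium (at least 12.2-fold lower). The nuclear pore gene NUP210 had 0.261, 0.586 and 1.18 CPM in the serum-free group, 0, 0 and 0.195 in the TGF-β1 group and 5.69, 7.93 and 10.9 in the FBS group, with changes of -3.61 and 3.61, and the interleukin gene IL1A changed by -2.46 and 3.77. The numbers of such genes depend on scaling: with total library size, under which the median gene lies at -0.17 with TGF-β1 and 0.21 with FBS, they were 408 and 1215.

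Other members changed by similar amounts in the treatments. Among the genes that moved 2-fold or more in both, the 95% interval of TGF-β1 minus FBS lay within -1 and 1 on the log2 scale in 293 higher and 403 lower genes, 38.9% and 28.3% of the 2-fold members. Within 0.58 the counts were 120 and 143. The 5 with the largest rises were PMCH, PARPBP, ADAM19, ADAMTS1 and SMAGP, and those with the largest falls SELENBP1, SYNDIG1, KERA, ITGA2 and ANO2. PMCH had 0, 0.287 and 0.990 CPM in the serum-free group, 10.1, 19.1 and 32.1 in the TGF-β1 group and 17.7, 21.1 and 29.1 in the FBS group, a difference of -0.18 (-0.76 to 0.41). PARPBP had 0, 0.359 and 1.38 CPM in the serum-free group, 11.5, 22.5 and 36.7 in the TGF-β1 group and 13.2, 25.8 and 34.2 in the FBS group, a difference of -0.06 (-0.70 to 0.58). ANO2, a calcium-activated chloride channel, had 11.3, 16.8 and 20.9 CPM in the serum-free group, 0.402, 0.568 and 1.09 in the TGF-β1 group and 0.537, 0.691 and 1.14 in the FBS group, a difference of -0.25 (-0.74 to 0.25), and the membrane glycoprotein SMAGP rose by 4.87 and 4.73. In each of these 10 genes but ADAM19 the ranges of the treatments overlapped, and in all 10 they lay clear of the serum-free range.

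**Figure D5:**
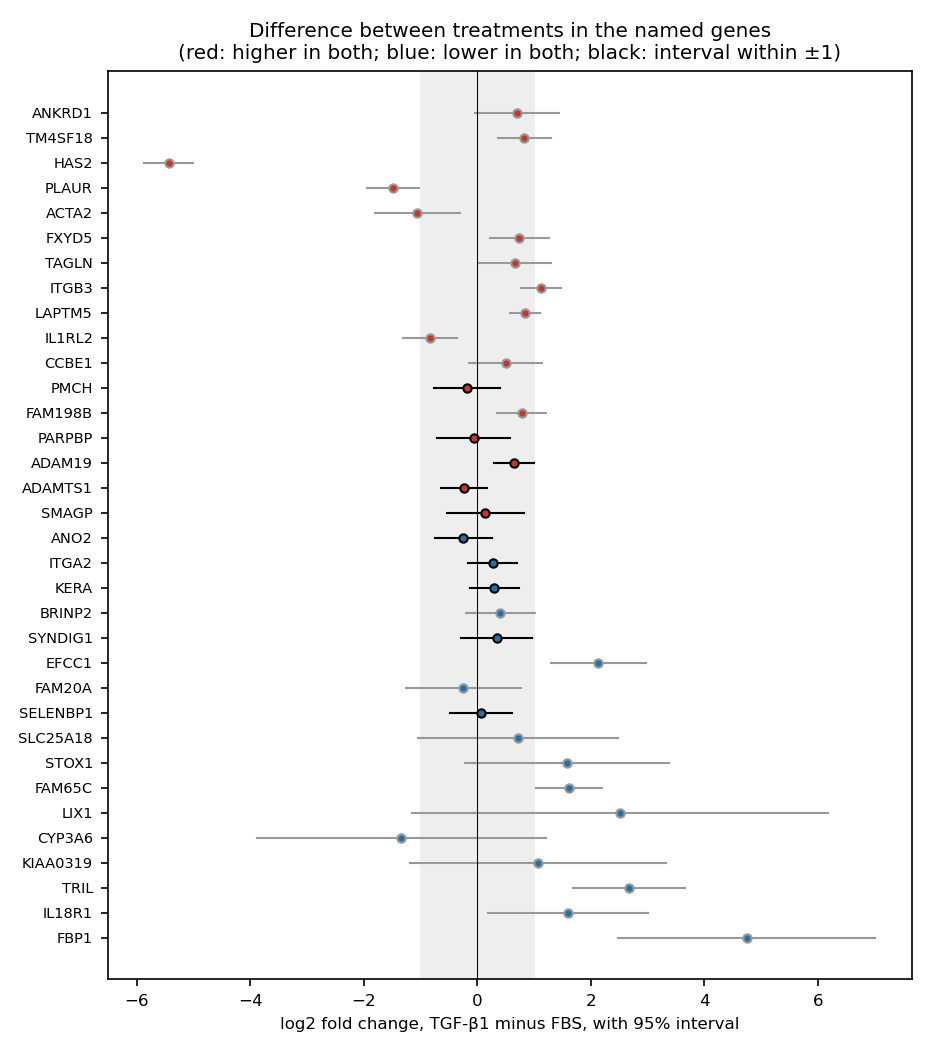
TGF-β1 minus FBS on the log2 scale with 95% intervals for the named genes of the largest changes and the largest evenly changed genes, red for genes higher and blue for genes lower in both, black outlines where the interval lies within -1 and 1 (grey band). SELENBP1, KERA, PMCH and PARPBP lie close to 0 and HAS2 at -5.44, and CHRNA3 is not drawn, since it had 0 counts with FBS.

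Markers of other cells of the cornea moved as well. None of the 9 epithelial markers in the table had enough counts to be tested: their summed level was 0.122 to 0.764 CPM (serum-free), 0.168 to 1.21 CPM (TGF-β1) and 0.537 to 1.70 CPM (FBS), and the corneal keratin KRT12 had 0 counts in every library. Glial and melanocyte markers were lower in both in 4 of 7 cases (-2.81 and -4.22 for GFAP and -2.16 and -4.62 for DCT among them) and higher in 0, and 3 were called with FBS only. Their summed level was 157 to 249, 155 to 205 and 228 to 331 CPM in the same order, with TYR at 0 in serum-free medium and FBS. GFAP (median 2.57 CPM) and DCT (7.56 CPM) were a small part of that sum in serum-free medium, and the sum did not fall with FBS. Of the 5 vascular markers the 3 with enough counts to be tested were lower (KDR, CDH5 -1.11 and -2.76, VWF -1.73 and -4.15), with sums of 246 to 368, 52.1 to 113 and 13.8 to 19.0 CPM, of which KDR alone had 231 to 354, 43.5 to 109 and 11.5 to 15.5 CPM. The untested PECAM1, an endothelial adhesion molecule, had 10, 37 and 126 counts over the 8 libraries of each group. Of 6 immune markers 2 could be tested, and CD68, a lysosomal protein of macrophages, rose (1.49 and 2.95). It made up most of the immune sums with FBS (3.35 to 6.08, 5.94 to 9.56 and 11.9 to 26.0 CPM, against 1.40 to 3.75, 5.10 to 7.89 and 11.1 to 25.6 CPM for CD68). Among the untested leukocyte genes the counts over the same groups were 148, 10 and 19 for CD74, 19, 10 and 1 for TYROBP and 21, 4 and 18 for PTPRC. Of 6 corneal endothelial markers 1, N-cadherin (CDH2, 1.17 and 3.64), was higher in both and 0 lower. Among the others 1 rose with TGF-β1 and fell with FBS, 2 did the reverse, 1 was called with TGF-β1 only and 1 with neither. The sums were 1099 to 1412, 2578 to 3359.6 and 488 to 628 CPM, of which CDH2 was a small part (means of 1.52, 3.41 and 19.1 CPM). The part of such cells in the falls of NTRK2 and NTRK3 and in the rise of LAPTM5 was not tested.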

How the data were processed

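RNA-seq was done on 24 samples, and the authors deposited a table of read counts per gene and a table of FPKM values for 23428 rabbit genes. The aligner, the counting tool and the genome build were not given in the sources used here, nor whether counting used strand, and 0 columns of per-sample values were left without a sample. Genes were named by the deposited table's symbols, and 700 of 8020 locus numbers by a RefSeq table of the mOryCun assembly.
Counts were filtered by edgeR's default expression filter to 13308 genes, scaled by TMM and fitted with edgeR 4.0.16 (quasi-likelihood test, Benjamini-Hochberg adjustment over all genes, R 4.3.3) on all 24 libraries, with condition as the only term. Intervals of TGF-β1 minus FBS are 95% Wald intervals. The SE printed with a change was derived from its test, as the absolute change over the square root of the F statistic. These SEs and the Wald intervals thus come from different methods. The set-by-contrast term came from a fit with set and condition. Total counts of 15410285 to 22528261 per library set the counting precision, and ratios of low counts carry intervals for counting error only.
The alternatives were other size factors, total library size, no filter or a mean CPM filter, DESeq2 1.42.0, limma 3.58.1 on log2(FPKM + 0.1) or log2(FPKM + 1), a replicate block, set as a covariate, each set alone, summed counts, a stricter threshold of 0.01 and leaving out each library.
The labels number the libraries alike in each condition. The deviations of same-numbered libraries from their group means correlated at 0.177 to 0.362 between serum-free medium and TGF-β1, 0.115 to 0.429 between serum-free medium and FBS and 0.103 to 0.332 between the treatments. Libraries of different numbers were not compared, and the 2 sets alone could give such values, so pairing by number was not established. The main fit has no term for it, and the replicate block is given as an alternative.
The method was tested on simulated counts for 13308 genes, where 71.0% of 2-fold and 96.0% of 4-fold genes were recovered in both treatments and 2 unchanged genes were called. In that simulation few genes changed, by the same fold in both treatments, and there were no sets. In the data 76.4% of genes were called in the averaged contrast and the sets differed, so these rates need not hold for them.
The members and the 38 gene lists (594 genes, 557 in the table and 519 tested) were chosen with earlier results of these data known. Genes were named by rule: the 4 markers, the 15 largest rises and falls, the 5 evenly changed genes per direction with the largest smaller change, the largest genes called in opposite directions, and from each list up to 3 that changed in both, 1 in opposite directions and the most abundant other. PARP11, PIM2, AP1M1 and GTF3C1 were chosen after their values were seen. Not every gene the rule names is printed.
GNG10 spans 1624055 to 123554260 of chromosome 1 in the deposited table and so covers TAGLN, FBP1, NR4A3, KLF9, COL15A1 and ASPN, and how reads in such overlaps were assigned was not given in the sources used here.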

Additional observations from a re-analysis of the deposited data

Results flagged for a closer look

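The averaged change of 40 of 152 named genes, each called in both treatments, differed between library numbers 9 to 12 (set 2) and 5 to 8 (set 1) by a test of the difference itself (set-by-contrast term, edgeR adjusted p under 0.05), as it did in 1834 of 13308 genes tested (13.8%). What the sets stand for (animals, days or runs) was not given in the sources used here, and the cause was not tested. In each of these genes the change had the same sign in both sets. Set 2 minus set 1 (log2) was negative, a smaller rise in set 2, in 20 of the genes that rose: -2.61 for ANKRD1, -2.09 for PLAUR, -1.20 for FAM198B, -1.76 for FLNC, -0.35 for CCDC80, -1.08 for FOSL1, -1.39 for KLF10, -0.68 for MYC, -0.55 for NOP16, -0.56 for POLR1A, -0.79 for PFKFB3, -0.47 for TFRC, -1.39 for ADAM19, -1.41 for ADAMTS1, -1.60 for THBS1, -1.37 for BGN, -1.13 for P4HA3, -1.01 for TGM2, -0.59 for ICAM1 and -1.40 for CDKN1A. It was positive, a larger rise in set 2, with 0.50 for FHL2, 0.96 for HK2, 0.43 for DNAJB11, 0.28 for ACTB and 1.55 for CYP26B1. Among genes that fell it was positive, a smaller fall in set 2, with 0.80 for ANPEP, 0.94 for KERA, 1.03 for SYNDIG1, 0.71 for ITGA2, 0.49 for CREB3L1, 0.37 for COL6A2, 0.66 for KDR, 2.94 for NTRK2, 1.99 for C3, 1.53 for CFB, 1.35 for STC2, 0.71 for IGFBP4, 1.46 for IGFBP6, 2.23 for APOD and 0.39 for CCND2.

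In 19 of 456 groups of 8 libraries the highest or lowest library of a named gene stood apart from the other 7 (Dixon's ratio above 0.526). Chance alone gives about 1 in 20 groups. In serum-free medium the highest library stood apart for ANKRD1 (2.31 CPM in replicate 5, next 0.793), TM4SF18 (0.227 CPM in replicate 6, next 0.0521), IL1RL2 (3.44 CPM in replicate 3, next 1.20), TFRC (166 CPM in replicate 7, next 142), CFB (428 CPM in replicate 8, next 339), STC2 (162 CPM in replicate 4, next 105) and IL6 (0.459 CPM in replicate 1, next 0.235). With TGF-β1 the highest library stood apart for CYP3A6 (0.142 CPM in replicate 5, next 0), EFCC1 (4.75 CPM in replicate 5, next 2.93), TFRC (273 CPM in replicate 2, next 243) and IL6 (3.90 CPM in replicate 1, next 2.77). With TGF-β1 the lowest library stood apart for NR4A1 (25.2 CPM in replicate 2, next 33.9). With FBS the highest library stood apart for GTF3C1 (105 CPM in replicate 4, next 96.8), FBP1 (0.0546 CPM in replicate 7, next 0), STOX1 (0.218 CPM in replicate 7, next 0.0989), GARS (335 CPM in replicate 5, next 303), STC2 (22.9 CPM in replicate 5, next 16.3), GFAP (0.394 CPM in replicate 1, next 0.179) and VWF (0.346 CPM in replicate 5, next 0.0393).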

How the results depend on the processing

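The counts of genes higher and lower in both were within 1.5 times 2751 and 3118 under every alternative except summed counts per condition and set, which gave 1085 and 1358 with 1048 and 1170 of the genes above among them. These sums also gave 163 and 95 genes in opposite directions (TGF-β1 up, FBS up) and 164 and 153 evenly changed genes, with fewer samples in the fit. FPKM with a pseudocount of 1 gave 446 and 725 genes at 2-fold, a scale that shrinks low values. Total library size gave 408 and 1215 genes in opposite directions, and a limit of 0.58 gave 120 and 143 evenly changed genes. Leaving out 1 library at a time gave 4995 to 5170 and 4963 to 5222 genes in the averaged contrast, 2664 to 2829 and 3032 to 3237 in both, 748 to 810 and 1422 to 1491 at 2-fold, 667 to 744 and 608 to 671 in opposite directions, and 278 to 306 and 385 to 409 evenly changed. The replicate block (pairing by library number) gave 5406 and 5326 in the contrast and 3112 and 3368 in both, and changed no count by over 1.5 times. Of 7101 refits of single named genes 7017 kept direction and side of the threshold, 31 no longer passed, 47 passed newly and 6 changed sign, all of them TGF-β1 changes that had not passed the test. With set 1 it became -0.10 for COL1A1 with TGF-β1, -0.0890 for RPLP0 with TGF-β1 and 0.11 for TAGLN2 with TGF-β1. With set 2 it became 0.99 for MKI67 with TGF-β1 and 0.00859 for NCL with TGF-β1. Under total library size it became -0.0376 for PARVA with TGF-β1. Counting error limits genes near 0 counts. In simulated data of this size, with few changed genes and no sets, 71.0% of 2-fold and 96.0% of 4-fold genes were recovered in both, and these rates need not hold here.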

Other observations

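The deposited table assigns a protein family to some genes, and those families were read after their values had been seen, so the counts below are a description. The families named were picked by no rule set beforehand, from many with 10 or more tested genes. Others with a like share were left out, such as HSP70 (9 of 14 higher and 3 lower in both). So were contrary ones, such as tubulin (0 of 18 higher and 2 lower). Of 4891 tested genes with a family, 20.5% were higher and 25.7% lower in both treatments. The proteasome family, whose products degrade ubiquitin-tagged proteins, had 12 of 14 genes higher and 0 lower (median averaged change 0.93). In each of the 12 the change was larger with FBS (0.87 to 1.92) than with TGF-β1 (0.28 to 0.77). The Ets transcription factors had 7 of 10 higher and 0 lower (median 1.00), and tyrosine phosphatases 12 of 19 higher and 1 lower (median 0.66).

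Families on the lower side were the aldehyde dehydrogenases, with 8 of 14 lower and 1 higher (median -0.72), and the homeobox factors, with 12 of 19 lower and 4 higher (median -0.80). Semaphorin-domain genes, which include axon guidance cues and their receptors, had 11 of 19 lower and 3 higher (median -0.84), and voltage-gated and related ion channels 16 of 34 lower and 3 higher (median -1.55). Zinc finger repressors with a KRAB domain were lower in 53 of 138 cases and higher in 2 (median -0.44). Many KRAB genes lie in clusters of close copies, and how reads shared by copies were assigned was not given in the sources used here.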
